A study of Mus musculus with 3 samples.

Results

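Adipokines are proteins that fat cells release into the blood or the surrounding tissue. The transcripts of 9 adipokine genes, namely Adipoq, Lep, Retn, Rarres2, Nampt, Rbp4, Lcn2, Apln and Angptl4, were examined in adipocytes exposed to an oxidant. The genes were taken as a list by name, with no cut on their levels. Earlier results of these data were known when the list was chosen. They are 9 of the 18194 genes that the array annotation assigned to at least 1 probe set of their own, and they were read by 14 probe sets, the groups of short probes that each give 1 value per array. The cells were 3T3-L1 adipocytes, fat cells differentiated in culture from an established mouse fibroblast line. All 3 samples were treated for 2 h with glucose oxidase, an enzyme that releases hydrogen peroxide as it oxidises glucose, and served in the study as a positive control for oxidative stress. Their tissue label names preadipocytes, while their source label and growth protocol describe insulin-resistant adipose cells after differentiation. Control samples were not analysed here. Each value is therefore a level in treated cells, with no change on treatment and no test of one. The labels do not say whether each sample was a separate culture, and the spread over samples may thus be technical only.

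Adiponectin, encoded by Adipoq, is released almost only by adipocytes, circulates as multimers joined by disulphide bonds and raises insulin sensitivity. Leptin, encoded by Lep, reports the size of fat stores to the brain, and resistin, encoded by Retn, is made in mice mainly by adipocytes and opposes insulin action. Rarres2 encodes chemerin, Rbp4 the retinol carrier of plasma, Lcn2 an iron-siderophore binding lipocalin, Apln the peptide apelin, and Angptl4 an inhibitor of lipoprotein lipase. Nampt encodes the rate-limiting enzyme of NAD salvage, which is also found outside cells under the name visfatin.

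RefSeq promoter windows were available for 7 of the 9 genes, in 8 windows of 250 bases that end just before the transcription start. The 5 windows printed here are those of Adipoq and Retn, the classical adipocyte hormones whose transcripts were above background, and of Lep, Rbp4 and Lcn2, the genes whose transcripts were not. Of the 2 windows of Rbp4, the one that held matches is printed. Sequences run 5′ to 3′ on the gene’s own strand in build GRCm38.p6. Capitals mark matches to any of 6 short motifs searched on both strands, and they overlapped in none of these windows except for a palindrome read on both strands. The windows lie at chr16:23146286-23146535 on the plus strand for Adipoq, chr8:3655520-3655769 on the plus strand for Retn and chr6:29059971-29060220 on the plus strand for Lep. That of Rbp4 lies at chr19:38124812-38125061 on the minus strand, and that of Lcn2 at chr2:32387740-32387989 on the minus strand.
Adipoq: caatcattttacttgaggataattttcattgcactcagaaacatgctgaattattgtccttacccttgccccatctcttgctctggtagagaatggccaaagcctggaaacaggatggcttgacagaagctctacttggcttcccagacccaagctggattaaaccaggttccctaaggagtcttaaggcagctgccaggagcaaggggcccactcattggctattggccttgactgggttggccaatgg
Retn: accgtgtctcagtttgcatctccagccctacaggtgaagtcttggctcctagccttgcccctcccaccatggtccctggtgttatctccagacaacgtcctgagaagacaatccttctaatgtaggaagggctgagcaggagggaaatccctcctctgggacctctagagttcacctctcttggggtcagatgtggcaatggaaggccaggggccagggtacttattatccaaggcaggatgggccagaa
Lep: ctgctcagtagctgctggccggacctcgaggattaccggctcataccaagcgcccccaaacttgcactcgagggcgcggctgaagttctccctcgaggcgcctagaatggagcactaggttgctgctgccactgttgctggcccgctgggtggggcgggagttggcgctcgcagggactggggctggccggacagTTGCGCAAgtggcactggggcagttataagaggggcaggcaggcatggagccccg
Rbp4: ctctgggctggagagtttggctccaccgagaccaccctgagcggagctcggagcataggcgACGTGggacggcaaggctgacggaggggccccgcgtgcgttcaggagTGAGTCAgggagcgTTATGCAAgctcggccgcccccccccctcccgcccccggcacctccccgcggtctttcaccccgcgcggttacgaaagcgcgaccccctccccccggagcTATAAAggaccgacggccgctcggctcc
Lcn2: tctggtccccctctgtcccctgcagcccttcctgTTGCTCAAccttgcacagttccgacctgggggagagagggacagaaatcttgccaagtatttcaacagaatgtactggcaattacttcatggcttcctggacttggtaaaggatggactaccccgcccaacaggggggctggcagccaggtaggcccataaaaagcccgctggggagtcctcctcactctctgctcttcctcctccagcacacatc
The C/EBP core TTGCNNAA was found in 3 of the 8 windows, those of Lep, Rbp4 and Lcn2, against 9.56% of all 32851 RefSeq windows of this length. In Lep it was the palindrome starting at -55, in Rbp4 it was on the minus strand at -128, and in Lcn2 it started at -216. The TATA box TATAAA (12.4% of all windows) was found in that of Rbp4, at -28. The AP-1 motif TGANTCA (6.75% of all windows) was also found in Rbp4, at -142. The hypoxia response core ACGTG (16.6% of all windows) was found in Rbp4, at -189, and in Nampt, at -82. The nuclear receptor core AGGTCA (14% of all windows) was found in Nampt, at -151, and the antioxidant response core TGACNNNGC (10.2% of all windows) was found in none of the 8. In all, 4 of the 8 windows held none of the 6 motifs, those of Adipoq, Retn and Apln and the other window of Rbp4. These are matches of letters within short windows and not measured sites, and a window without a match says nothing of a factor’s binding elsewhere.

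After glucose oxidase, transcripts of 6 of the 9 adipokine genes were above background, namely Adipoq, Retn, Rarres2, Nampt, Apln and Angptl4. Lep, Rbp4 and Lcn2 were not. Background was set at a log2 intensity of 7.58, or an intensity of 191.1, which is the 95th percentile over 84 probe sets of smell, pheromone and taste receptor genes. A gene was counted as above background where at least 1 of its probe sets exceeded this value in all 3 arrays. By the same rule 54.4% of all 18194 genes were above background, so 6 of 9 is not far from the share of genes in general. Of the 14 adipokine probe sets, 9 were above background in all arrays, against 38.8% of all 45101 probe sets. These 2 sets are unlike, since the 45101 include probe sets with several genes or none listed. Of the 9, moreover, 3 belong to Nampt and 2 to Rarres2. Intensities of different probe sets depend on their own probes, so the heights of different genes do not rank their transcript amounts. Within some lists heights served to choose which genes to name. RNA from whole cultures was measured, so fewer cells that express a gene and less RNA per cell cannot be told apart.

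**Figure D1:**
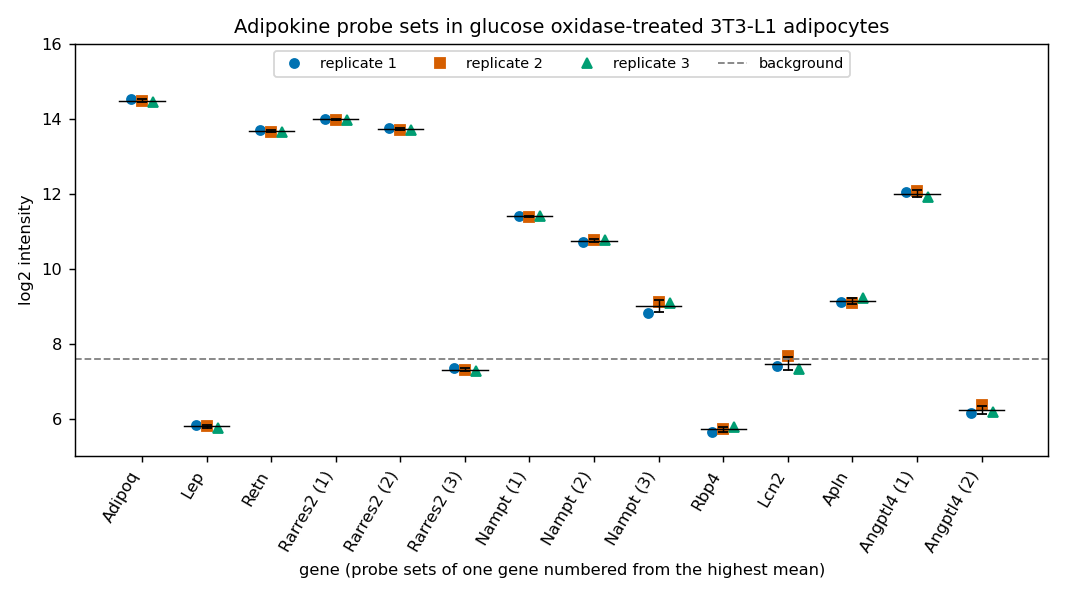
Log2 intensity (y axis) of the 14 probe sets of the 9 adipokine genes (x axis), with 1 symbol per replicate, a short line at the mean, error bars for the SD (n = 3) and a dashed line at the background of 7.58. Adipoq, Retn, Nampt, Apln, 2 of 3 Rarres2 probe sets and 1 of 2 Angptl4 probe sets lie above the line in every replicate, Lcn2 straddles it, and Lep and Rbp4 lie below it. Heights cannot be compared between genes.

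The insulin-sensitising hormone adiponectin gave a strong and even signal. The Adipoq intensity was 23525, 22928 and 22548 in replicates 1, 2 and 3. The arrays lay within 1.04-fold of each other, and the mean log2 intensity was 14.49 ± 0.03 (SD, n = 3), 6.91 above background. The brightest probe set on each array had an intensity of 25611, 23457 and 23439, so Adipoq was read near the top of the scale.

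Resistin, which opposes insulin action in mice, was also strongly detected. The Retn intensity was 13451, 12853 and 12940 in replicates 1, 2 and 3, with replicate 1 the highest and the other two almost equal. The mean log2 intensity was 13.67 ± 0.04 (SD, n = 3), 6.10 above background. Of the resistin-like genes, Retnla was at a log2 intensity of 7.15 ± 0.04 and Retnlb at 6.22 ± 0.21 (SD, n = 3), both not above background.

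Leptin, the other classical hormone of fat cells, gave no signal above background on its only probe set. The Lep intensity was 57.1, 55.5 and 53.7 in replicates 1, 2 and 3. All 3 arrays lay below the background intensity, and the mean log2 intensity was 5.79 ± 0.04 (SD, n = 3), a difference of -1.79 from background. Rbp4 was likewise low, with intensities of 49.9, 53.0 and 54.5 in replicates 1, 2 and 3. Its mean log2 intensity was 5.71 ± 0.06 (SD, n = 3), and all 3 arrays were below background. Both genes were read by 1 probe set each, so a low transcript level and poorly binding probes cannot be told apart.

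Lcn2, the siderophore-binding lipocalin, was at the limit of detection. Its intensity was 170.3, 203.4 and 160.4 in replicates 1, 2 and 3. Only replicate 2 exceeded the background intensity of 191.1, and the mean log2 intensity was 7.47 ± 0.18 (SD, n = 3). This SD was the largest among the 9 genes’ highest probe sets, with a 1.27-fold gap between the highest and lowest arrays. Of all genes above background, which do not include Lcn2, 35.5% were highest in replicate 2.

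Chemerin, which draws immune cells to tissue and promotes adipocyte differentiation, depended on the probe set read. One Rarres2 probe set had intensities of 16391, 16141 and 16081 in replicates 1, 2 and 3, and a mean log2 intensity of 13.98 ± 0.01 (SD, n = 3). A second had intensities of 13831, 13348 and 13394, and a mean of 13.72 ± 0.03 (SD, n = 3). The third was at only 162.4, 156.6 and 154.0, with a mean of 7.30 ± 0.04 (SD, n = 3), and was below background in all 3 arrays. The array values of the strong probe sets gave the same call, while the third gave the opposite one. Both strong probe sets carry a name ending that marks probes able to match more than one transcript, and without such probe sets Rarres2 was at 7.30 and not above background.

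Angptl4, whose product inhibits lipoprotein lipase and is induced by fasting and by PPAR ligands, showed the same kind of split. One probe set had intensities of 4197, 4327 and 3838 in replicates 1, 2 and 3, with a mean log2 intensity of 12.01 ± 0.09 (SD, n = 3). The other had intensities of 70.7, 82.1 and 72.2 and a mean of 6.23 ± 0.12 (SD, n = 3), below background in all arrays. Replicate 2 was the highest on both, while replicate 3 was the lowest on the first and replicate 1 on the second. The strong Angptl4 probe set is also of the kind that can match more than one transcript, and without such probe sets Angptl4 was at 6.23. The count of adipokine genes above background was then 4 of 9 in place of 6, with 52.9% of 17904 genes above background by that rule.

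Nampt, the enzyme of NAD salvage, was above background on all 3 of its probe sets. The brightest gave intensities of 2693, 2689 and 2696 in replicates 1, 2 and 3, a mean log2 intensity of 11.39 with an SD of 0.0019 (n = 3). The second gave 1671, 1742 and 1749, with a mean of 10.75 ± 0.04 (SD, n = 3). The third gave 452.1, 552.2 and 541.9, with a mean of 9.004 ± 0.16 (SD, n = 3). Replicate 1 was the lowest on the second and the third but lay between the others on the first, so the even values of the brightest probe set were not shared by the other two.

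Apelin, a peptide whose production in fat cells rises with insulin and hypoxia, was detected at a moderate margin. The Apln intensity was 552.4, 539.3 and 599.3 in replicates 1, 2 and 3. All 3 arrays were above background, replicate 3 the furthest, and the mean log2 intensity of 9.14 ± 0.08 (SD, n = 3) was 1.56 above the background value.

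The 6 detected adipokine genes had a median SD over the arrays of 0.033 on the log2 scale, against 0.048 for all 9899 genes above background. The median was much the same for detected genes of some other lists, at 0.032 for receptors and partners, 0.035 for folding and assembly and 0.036 for adipocyte markers. In the remaining lists with detected genes it was higher, from 0.040 for transcription factors to 0.108 for the 1 detected endothelial marker. The ratio of the adipokine genes’ median to that of all genes above background was 0.688. It fell to 0.314 without replicate 1 and rose to 0.961 without replicate 2, and it was 0.340 after quantile normalization of the 3 arrays. Rarres2 and Nampt had SDs below those of 93.0% and 99.9% of genes above background. The SDs of Adipoq, at 0.031, and Retn, at 0.035, were also below the median. Apln and Angptl4 varied more, with 18.1% and 12.5% of genes above background having a larger SD.

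**Figure D2:**
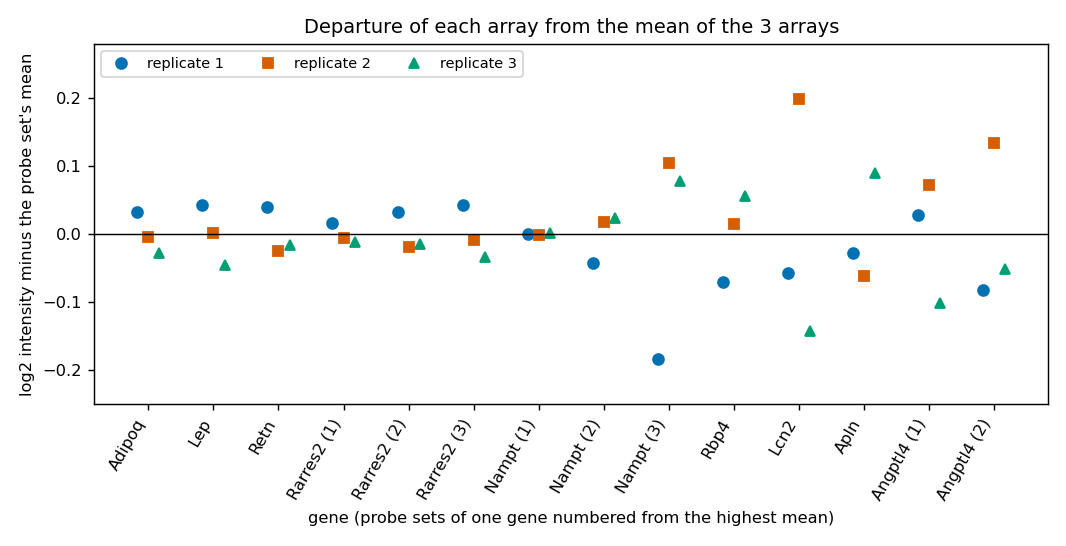
Departure of each replicate’s log2 intensity from the probe set’s own mean (y axis) for the 14 adipokine probe sets (x axis), with 1 symbol per replicate. Adipoq, Retn, Lep and all 3 Rarres2 probe sets are highest in replicate 1, Lcn2, both Angptl4 probe sets and the third Nampt probe set in replicate 2, and the remaining probe sets in replicate 3.

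Adipoq, Retn, Rarres2 and Lep were all highest in replicate 1. Among the genes above background this was so for 3 of the 6 adipokine genes and for 23.7% of all genes. Over the 14 adipokine probe sets the count was 6, of which 3 belong to Rarres2 and 2 were not above background. The largest departures of replicate 1 on these 6 were small. They were 0.044 for Lep and 0.043 for the third Rarres2 probe set, both not above background. Retn lay 0.041 and the brightest Rarres2 probe set 0.017 above the probe set’s mean. On the 417 probe sets with a mean log2 intensity over 13, replicate 1 ran a median of 0.0089 above replicate 2 and 0.018 above replicate 3. Over all genes above background it ran the other way, by medians of -0.021 and -0.020. After quantile normalization the Adipoq values were 14.49, 14.49 and 14.48, with replicates 1 and 2 tied, and 11 of the 14 probe sets kept the same single highest replicate. The exceptions were Adipoq and the brightest and second Nampt probe sets.

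The receptors and partners of the adipokines were unevenly detected, at 11 of 18 genes above background (54.4% of all genes). The adiponectin receptor genes Adipor2 and Adipor1 were above background, at log2 intensities of 12.61 ± 0.02 and 11.83 ± 0.02 (SD, n = 3). The T-cadherin gene Cdh13, whose product binds adiponectin, was above background on only 1 of its 4 probe sets, at 8.61 ± 0.06 (SD, n = 3). The count of receptor and partner genes was 8 of 18 where each gene was read as the median over its probe sets, against 43.8% of all genes. The leptin receptor gene Lepr was not above background on any of its 4 probe sets, the highest at 7.21 ± 0.06 (SD, n = 3). Nor were the chemerin receptor genes Cmklr1, Gpr1 and Ccrl2, at 6.32 ± 0.06, 6.73 ± 0.12 and 7.21 ± 0.04 (SD, n = 3), or the apelin receptor gene Aplnr, at 6.44 ± 0.14 (SD, n = 3). For RBP4, the retinol uptake receptor genes Stra6 and Stra6l were below background, with means of 7.002 ± 0.06 and 4.45 ± 0.04 (SD, n = 3). Ttr, the plasma partner of RBP4, was at 8.49 ± 0.01 (SD, n = 3) on its highest probe set and above background on 1 of 4.
The lipocalin receptor genes Slc22a17 and Lrp2 were just above background, at 7.90 ± 0.03 and 7.65 ± 0.08 (SD, n = 3). Lrp2 was so on only 1 of its 3 probe sets. Like Gpihbp1, Slc22a17 and Lrp2 were not above background with the 99th percentile. The count was then 8 of 18, against 47.8% of all genes. Cap1 and Tlr4, proposed to bind resistin, were at 10.46 ± 0.01 and 8.48 ± 0.09 (SD, n = 3). Lpl, the lipase that ANGPTL4 inhibits, was at 14.22 ± 0.01 (SD, n = 3). Lmf1, needed for its folding, was at 9.57 ± 0.12 and its anchor gene Gpihbp1 at 8.19 ± 0.17 (SD, n = 3). Above background were 2 of 4 probe sets for Tlr4, 2 of 3 for Adipor1 and 1 of 2 for Lmf1.

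**Figure D3:**
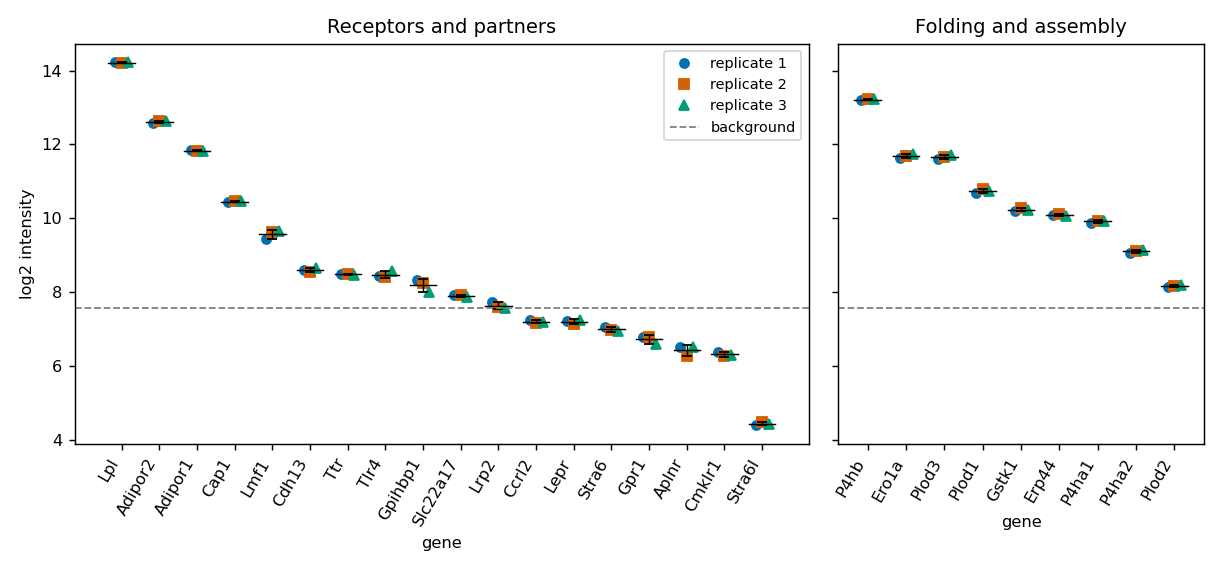
Log2 intensity (y axis) of receptor and partner genes (left) and of adiponectin folding and assembly genes (right), each by its highest probe set, with 1 symbol per replicate, a short line at the mean, error bars for the SD (n = 3) and a dashed line at the background of 7.58. Of 18 receptor and partner genes 11 lie above the line, and all 9 folding and assembly genes do. Heights cannot be compared between genes.

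Over all genes 54.4% were above background, the share to set beside each count in this paragraph. All 9 genes of adiponectin folding and assembly were above background. They were the disulphide-forming and retaining factors P4hb at a log2 intensity of 13.22 ± 0.02, Ero1a at 11.69 ± 0.05, Gstk1 at 10.24 ± 0.04 and Erp44 at 10.10 ± 0.03 (SD, n = 3). The lysyl hydroxylase genes Plod3, Plod1 and Plod2 were at 11.66 ± 0.05, 10.75 ± 0.05 and 8.17 ± 0.03, and the prolyl hydroxylase genes P4ha1 and P4ha2 at 9.92 ± 0.03 and 9.12 ± 0.03 (SD, n = 3). Of 6 measured enzymes that process adipokines, 2 were above background. These were Furin, which cleaves the ANGPTL4 precursor, at 8.66 ± 0.06, and Pcsk7 at 9.07 ± 0.05 (SD, n = 3). Of 9 measured genes of NAD metabolism around Nampt, 4 were above background, among them Nadk at 11.59 ± 0.01 and Nnmt at 11.35 ± 0.08 (SD, n = 3). Nmnat1, whose product acts on that of NAMPT, was at 7.48 ± 0.12 (SD, n = 3) and was not. Of its relatives, Nmnat2 was just above background at 7.68 ± 0.08, and Nmnat3, at 5.87 ± 0.05 (SD, n = 3), was not.

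The counts that follow are likewise to be read against 54.4% of all genes. Among 16 measured paralogues of the adipokines, 5 were above background. They included the lipocalin gene Apod at 12.85 ± 0.09 and the adiponectin relative C1qtnf12 at 9.72 ± 0.04 (SD, n = 3). Of 21 measured genes for other secreted fat factors, 15 were above background, including haptoglobin, Hp, at 12.82 ± 0.11 and the matrix protein gene Sparc at 13.67 ± 0.01 (SD, n = 3). Tnf, at 6.98 ± 0.12, and Fgf21, at 6.73 ± 0.08 (SD, n = 3), were not. Of 13 transcription factors that act on adipokine genes, 12 were above background, including Pparg at 12.74 ± 0.07 and Cebpa at 12.56 ± 0.03 (SD, n = 3), whereas Ppara was at 6.21 ± 0.01 (SD, n = 3).

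The cells carried the markers of adipocytes, with all 10 measured genes above background. Over all genes the share above background was 54.4%, to be set beside each marker count here. Of 8 preadipocyte and fibroblast markers 7 were also above background, among them Dlk1 at 13.24 ± 0.10 (SD, n = 3). Some adipokines are also made by leukocytes or liver. Of 10 macrophage markers 3 were above background, Lyz2 at 11.19 ± 0.09, Cd14 at 8.83 ± 0.02 and Csf1r at 8.70 ± 0.10 (SD, n = 3). Among those not above it, Adgre1, Cd68, Itgam and Ptprc were at 6.67 ± 0.08, 6.56 ± 0.05, 5.60 ± 0.04 and 4.64 ± 0.15 (SD, n = 3). Neutrophil markers numbered 3 of 7, none of them above background with the 99th percentile, against 47.8% of all genes. The count was 1 of 6 for endothelial and 0 of 5 for hepatocyte markers.

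**Figure D4:**
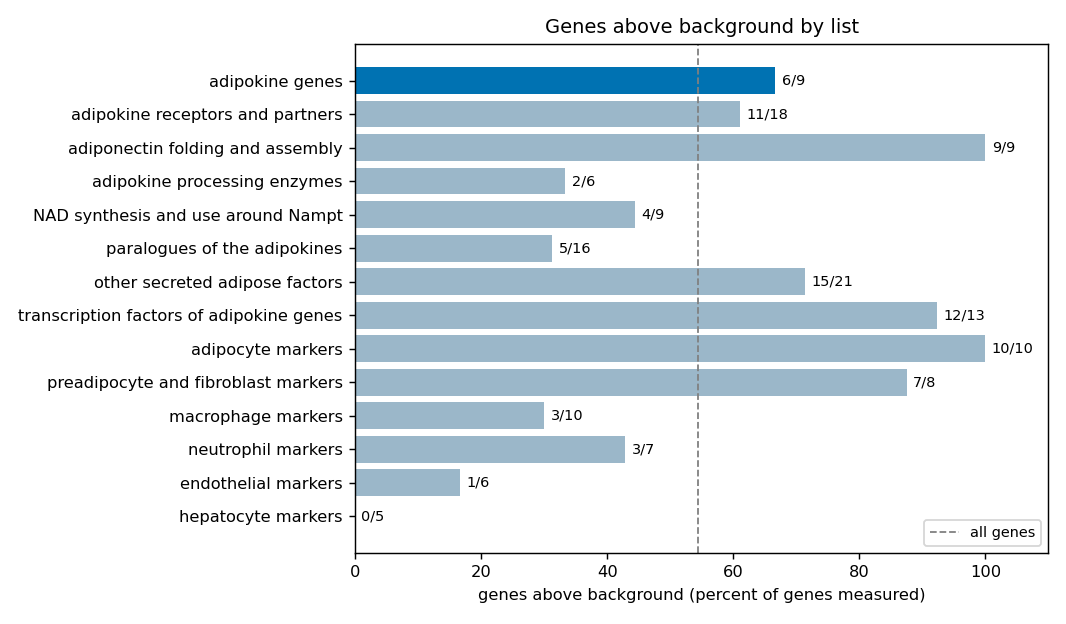
Share of measured genes above background (x axis, percent) for each gene list (y axis), with the counts beside the bars, the adipokine genes in dark blue and the share over all genes, 54.4%, as a dashed line. The adipokine genes stand at 6 of 9, adipocyte markers at 10 of 10 and hepatocyte markers at 0 of 5.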

How the data were processed

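Per the methods, the authors used RMA in affyPLM (version not given in the sources used here) to correct background and normalize the mouse4302 arrays. The deposited values are linear intensities with array medians of 127.6, 126.9 and 126.9, and were log2-transformed here. Any scaling or centring after RMA is unknown, and precision is limited by having 3 arrays.

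Of 45101 probe sets, gene levels used only the 34958 that the platform annotation gives 1 gene (932 had several and 9211 were not listed). All 45101 entered the share of probe sets above background, the search for those with a mean over 13 and quantile normalization. They also gave the array medians and the brightest intensities. Symbols were checked by Entrez identifier against RefSeq (GRCm38.p6), with 34754 matched and 0 changed. List genes without a probe set of their own in the annotation used were not analysed here. The brightest probe set by mean gave a gene’s level.

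The samples form 1 group, so no test was made. The members and the 13 other lists were chosen with earlier results of these data known. All members, all receptor and assembly genes and, per other list, at most 4 genes of highest level and 4 not above background were named. Calculations were tested on simulated data. Alternatives were background percentiles of 90 and 99, other background genes, the median of probe sets, no _s_at or _x_at probe sets, centring, quantile normalization, a pseudocount of 16, a linear coefficient of variation, no background filter and omission of each array. Python 3.11.15, pandas 2.3.3, numpy 2.4.6 and matplotlib 3.10.9 were used.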

Additional observations from a re-analysis of the deposited data

How the results depend on the processing

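No paired analysis was possible because there is only 1 group. The 6 adipokine genes above background were the same genes under every alternative run except on leaving out probe sets that can match more than one transcript, when Rarres2 and Angptl4 were lost and the count was 4. The ratio of the adipokine genes’ median SD to that of all genes was 0.688, and it was 0.340 after quantile normalization and between 0.314 and 0.961 when any array was omitted. The cause was not tested. The count of neutrophil markers, 3 of 7, was 0 with the 99th percentile as background and 1 with keratin-associated protein and defensin genes as background. Of all genes, 47.8% and 49.7% were above background in these settings. The counts of the other 12 lists stayed within 1.5 times their values. With the median of probe sets, 3 of 9 levels moved by more than 1 SD, to 9.12 for Angptl4, 10.75 for Nampt and 13.72 for Rarres2. A pseudocount of 16 also moved 3 of 9, to 6.16 for Lep, 6.10 for Rbp4 and 11.40 for Nampt. Lcn2 and the genes just above background are limited by signal near background.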
